A study of Mus musculus with 5 samples.

Results

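The genes described here encode the core of 3 DNA repair pathways, base excision repair (BER), nucleotide excision repair (NER) and mismatch repair. The 39 genes were taken by name from a list, 21 for BER, 12 for NER and 6 for mismatch repair, and all 39 were found among the 23997 gene names of the expression table. RNA was sequenced from whole cerebral cortices of C57BL/6 mouse embryos at embryonic day 16 (E16). The 2 conditional knockout libraries (cKO, MG18 and MG19) have the genotype Emx1-Cre Uhrf1 -/-, and the 3 control libraries (MG15, MG16 and MG17) are Emx1-Cre Uhrf1 +/-, so that all 5 carry the Cre driver and the controls lack 1 functional Uhrf1 allele. Emx1-Cre removes the floxed exon in the dorsal telencephalon only, and cells that enter the cortex from elsewhere, such as interneurons, microglia and vessel cells, keep the gene.

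Uhrf1 recognises hemimethylated DNA behind the replication fork and brings the maintenance methyltransferase Dnmt1 to it, and the study asks what its loss in cortical stem cells does to gene expression. BER corrects small base lesions. A DNA glycosylase removes the damaged base, an endonuclease cuts the abasic site, and a polymerase and a ligase close the gap. NER removes bulky, helix-distorting lesions such as ultraviolet photoproducts by unwinding the DNA and cutting out a stretch of the damaged strand. Mismatch repair corrects base mispairs and small loops that replication leaves behind. BER also completes active DNA demethylation, since the glycosylase Tdg excises the oxidised forms of 5-methylcytosine that the Tet enzymes make, which is why it is of interest where methylation is lost.

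The targeted gene followed the labels. Uhrf1 was measured at 2.75 and 2.61 FPKM (fragments per kilobase of transcript, per library scaled to a fixed number of mapped fragments) in the cKO libraries, against 7.24, 13.2 and 12.95 FPKM in the control libraries. This is a log2 fold change of -1.97 with an SE of 0.28 (adjusted p = 0.00763, limma). Over the alternatives its adjusted p ranged from 0.00116 to 0.266, and it was above 0.05 only when MG18 (0.257) or MG19 (0.266) was left out. Depth could only be estimated from the steps between low values, at about 9000000 and 11000000 fragments for the cKO libraries, against 11000000 to 44000000 fragments for the controls, so that the cKO values of rare transcripts rest on fewer fragments.

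For most repair genes the difference between cKO and control cortices was small, and it was mostly downward. The study reported DNA repair genes as underrepresented in the cKO at E16. That came from a gene set enrichment analysis on hallmark and curated sets, which was not repeated here. The largest difference was in the glycosylase gene Nthl1, whose average level in cKO was 48.0% of that in controls, and smaller ones were seen in Apex1, Rad23b and Xpa. None of the 39 changed at an adjusted p under 0.05 (limma), where 0.163% of the 14695 genes tested were lower in cKO and 1.1% were higher. At an unadjusted p under 0.05, 4 of the 39 were lower in cKO (10.3%, against 5.17% of all genes), namely Nthl1, Apex1, Rad23b and Xpa, and 0 were higher (against 6.37% of all genes). With the further requirement of over 2-fold, Nthl1 alone was lower (1.16% of all genes) and 0 were higher (2.88%). With each library scaled by its median ratio, 2 of the 39 were lower, Nthl1 and Apex1, where 3.85% of all genes were lower and 7.44% higher. Folds are differences of mean log2(FPKM + 0.1) between cKO and control, which understates changes of low genes, and p-values come from limma.

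The direction of the small differences was mostly downward. The mean log2 value was lower in cKO for 32 of the 39 genes and higher for 7, where 52.2% of all genes tested were lower. Over the alternatives 27 to 33 were lower. The fewest were without MG18, where 53% of all genes were lower. The most were after a correction for transcript length, where 58.4% of all genes were lower. The median log2 fold change was -0.14, against -0.02 over all genes, with a range from -1.05 to 0.45. For 35 of the 39 the 95% confidence interval lay within 2-fold in either direction. Both cKO libraries lay below every control library for 12 genes (30.8%, against 16.3% of all genes) and above every control library for 2 (5.13%, against 14.5%). Summed over the 39 genes, the level was 782 and 786.8 FPKM in the cKO libraries, against 922.4, 868.8 and 949.9 FPKM in the controls. Abundant genes weigh most in these sums. Among them are Apex1, with group means of 119.6 FPKM in cKO and 173.9 FPKM in controls, and Rad23b, with 75.1 and 97.8 FPKM. Over all genes tested the sums were higher in cKO, at 540700 and 627300 FPKM, against 432600, 411200 and 465000 FPKM in the controls. Abundant genes weigh most here too, the highest with a mean of 53580 FPKM, so these sums do not describe the typical gene. The list was not tested as a set, so these counts, medians and sums are descriptions.

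**Figure D1:**
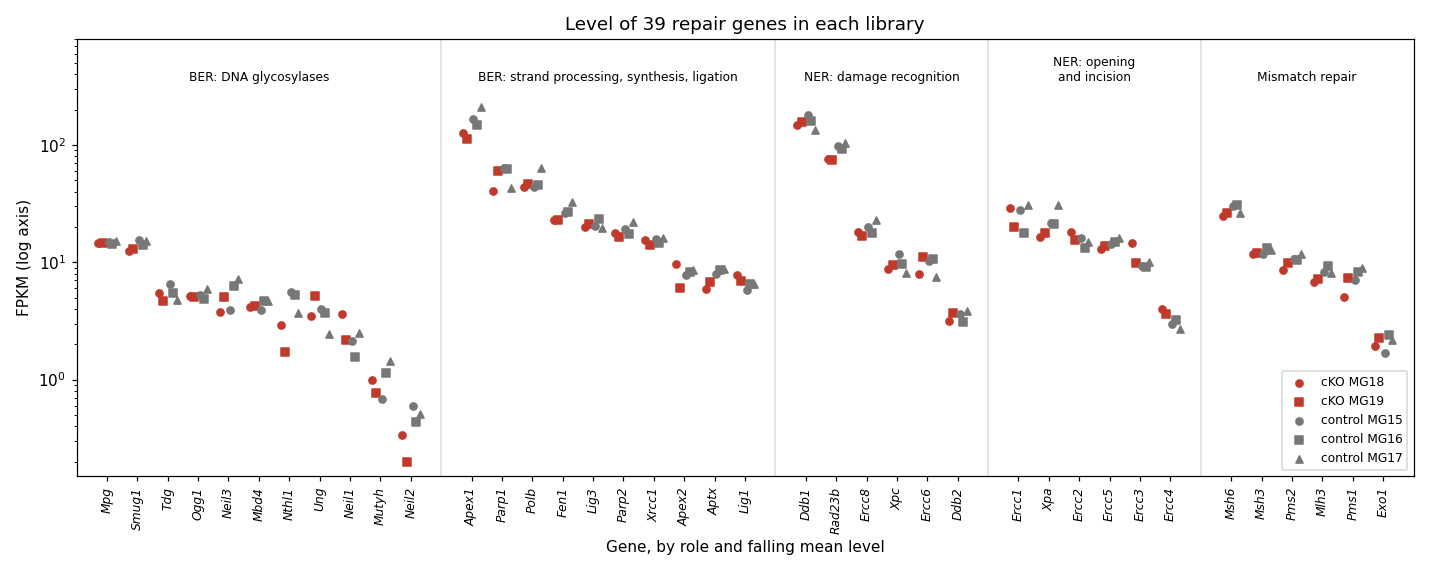
Level of each of the 39 repair genes in the 2 cKO libraries (red) and the 3 control libraries (grey), in FPKM on a log axis, by role and by falling mean level within a role. Means ran from 0.416 FPKM for Neil2 to 155.8 FPKM for Ddb1, and the libraries of both groups lay close together for most genes.

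**Figure D2:**
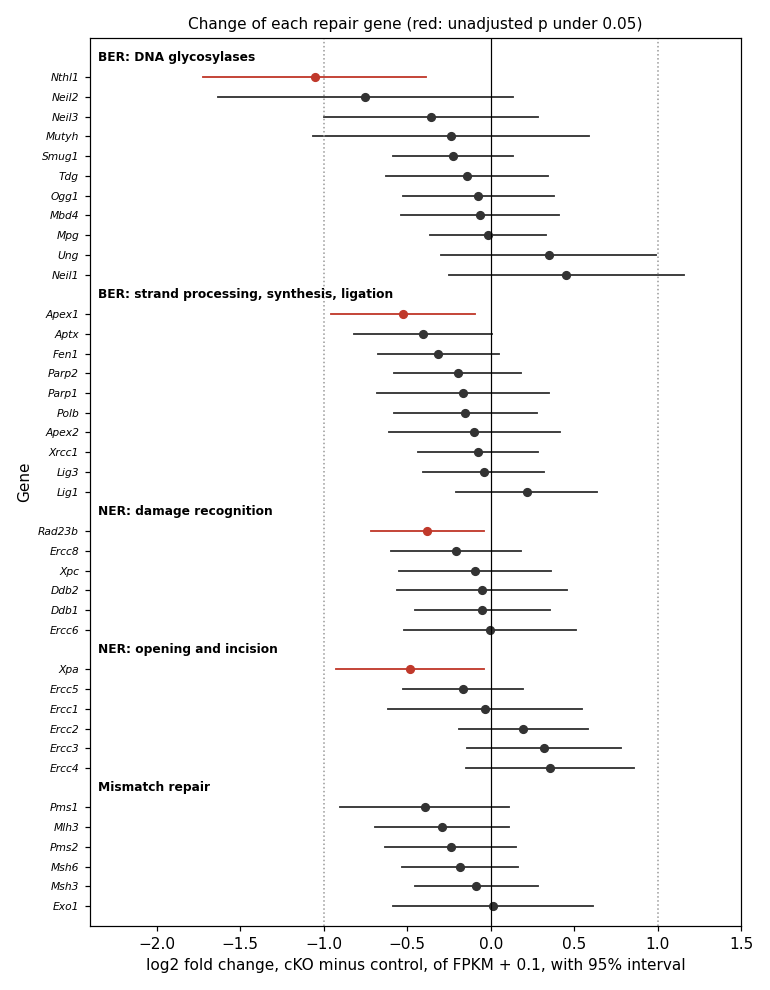
Difference in mean log2(FPKM + 0.1), cKO over control, of each repair gene, with its 95% confidence interval, and dotted lines at 2-fold. The genes in red, Nthl1, Apex1, Rad23b and Xpa, had an unadjusted p under 0.05, and most of the other points lie just below 0.

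Nthl1 was the gene with the largest difference. It encodes a bifunctional DNA glycosylase that removes oxidised pyrimidines and cuts the strand beside the abasic site, and it lies on chromosome 17 from 24632680 to 24638837 of GRCm38. Nthl1 was measured at 2.93 and 1.71 FPKM in the cKO libraries, against 5.59, 5.24 and 3.66 FPKM in the controls. The groups do not overlap, and the log2 fold change was -1.05 (SE 0.30, adjusted p = 0.204, limma). The cKO values correspond to about 23 and 17 fragments, so counting error is large. Without MG19, the lower of the 2 cKO libraries, the log2 fold change was -0.68 and the unadjusted threshold was missed. Without MG15 or without MG16 it was -0.94 or -0.98, short of 2-fold.

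Apex1 is the main endonuclease that cuts abasic sites and the enzyme through which most BER passes. It lies on chromosome 14 from 50924968 to 50927139. Apex1 was measured at 126.5 and 112.7 FPKM in the cKO libraries, against 164.9, 146.8 and 210 FPKM in the controls. The cKO libraries were both lower than the lowest control (log2 fold change -0.53, SE 0.19, adjusted p = 0.343, limma). Its unadjusted p was above 0.05 without MG18, with a log2 fold change of -0.61, and without MG19, with -0.44.

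Rad23b encodes the partner that stabilises the NER damage sensor Xpc, and lies on chromosome 4 from 55350043 to 55392237. It was measured at 76.4 and 73.7 FPKM in the cKO libraries, against 97.5, 91.4 and 104.4 FPKM in the controls. The 2 cKO values are close together and lie well below the lowest control (log2 fold change -0.38, SE 0.15, adjusted p = 0.389, limma). Its unadjusted p was above 0.05 without MG15, MG18 or MG19, with log2 fold changes of -0.38, -0.40 and -0.35.

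Xpa encodes the scaffold protein that verifies the lesion and positions the incision enzymes in NER. It lies on the reverse strand of chromosome 4 from 46155347 to 46196311. Xpa was measured at 16.5 and 17.8 FPKM in the cKO libraries, against 21.5, 21.1 and 30.5 FPKM in the controls, of which MG17 was the highest. The groups do not overlap (log2 fold change -0.49, SE 0.20, adjusted p = 0.395, limma). Its unadjusted p was above 0.05 without MG17, MG18 or MG19, with log2 fold changes of -0.31, -0.43 and -0.54.

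**Figure D3:**
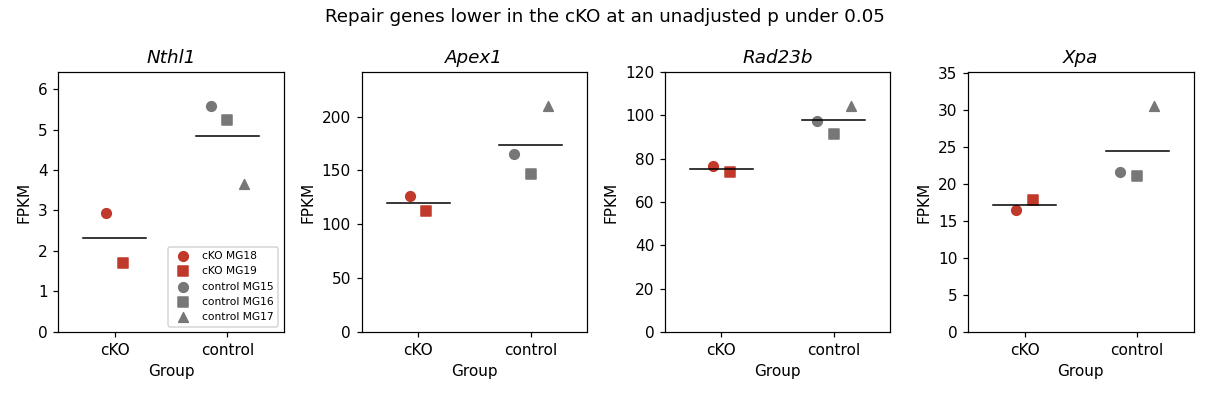
FPKM of Nthl1, Apex1, Rad23b and Xpa in each cKO library (red, left) and each control library (grey, right), with a line at the group mean and axes that start at 0. For each of the 4 genes both cKO points lie below all 3 control points, and the control MG17 is the highest for Apex1, Rad23b and Xpa and the lowest for Nthl1.

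The promoters of these 4 genes are shown because loss of Uhrf1 acts on methylation at CpG sites, and they differ in how many they hold. Each sequence is the strand of the gene, 250 bases before and 50 from the transcription start, from RefSeq on GRCm38.p6, with every CpG in capitals. Their positions are chr17:24632432-24632731 for Nthl1, chr14:50924699-50924998 for Apex1, chr4:55349792-55350091 for Rad23b and chr4:46196262-46196561, on the reverse strand, for Xpa.
Nthl1: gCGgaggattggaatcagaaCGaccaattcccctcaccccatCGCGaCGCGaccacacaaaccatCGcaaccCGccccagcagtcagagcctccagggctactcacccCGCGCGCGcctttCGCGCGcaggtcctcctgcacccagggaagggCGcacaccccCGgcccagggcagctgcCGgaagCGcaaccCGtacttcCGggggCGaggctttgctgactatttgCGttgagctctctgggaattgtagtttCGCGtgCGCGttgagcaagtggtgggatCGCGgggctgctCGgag
Apex1: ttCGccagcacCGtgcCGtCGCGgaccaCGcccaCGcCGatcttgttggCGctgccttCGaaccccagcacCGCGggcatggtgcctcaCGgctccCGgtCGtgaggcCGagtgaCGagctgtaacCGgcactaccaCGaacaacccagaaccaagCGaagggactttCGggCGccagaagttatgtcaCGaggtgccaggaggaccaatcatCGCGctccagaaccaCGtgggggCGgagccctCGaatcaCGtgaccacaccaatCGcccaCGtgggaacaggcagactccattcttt
Rad23b: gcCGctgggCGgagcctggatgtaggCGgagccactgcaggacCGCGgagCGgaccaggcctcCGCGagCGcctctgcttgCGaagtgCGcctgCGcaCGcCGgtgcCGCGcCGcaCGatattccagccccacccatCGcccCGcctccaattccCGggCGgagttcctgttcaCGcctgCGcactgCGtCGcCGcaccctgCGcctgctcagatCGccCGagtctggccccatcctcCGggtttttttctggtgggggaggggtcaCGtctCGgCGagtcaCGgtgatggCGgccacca
Xpa: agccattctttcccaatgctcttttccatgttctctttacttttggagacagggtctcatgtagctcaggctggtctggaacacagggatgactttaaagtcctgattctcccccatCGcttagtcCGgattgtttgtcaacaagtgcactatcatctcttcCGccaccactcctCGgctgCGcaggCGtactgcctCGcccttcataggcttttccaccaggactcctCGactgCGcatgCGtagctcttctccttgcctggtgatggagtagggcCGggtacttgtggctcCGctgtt
The windows of Nthl1, Apex1 and Rad23b hold 30, 31 and 36 CpG, and that of Xpa holds 12. Over the 32851 promoters of this length in RefSeq the median was 7 CpG and 43.5% held at least 10. Of the 39 repair genes 32 had a promoter there, 38 promoters in all (Neil2, Apex2, Polb, Xpc, Ddb2, Ercc3 and Exo1 did not), with a median of 21.5 CpG and 35 (92.1%) with at least 10. Promoters rich in CpG, as most of these are, are as a rule unmethylated in normal tissue. Methylation itself was not measured in these libraries. The study measured it in E16 cKO and control cortices by bisulfite sequencing, which is not analysed here. The Nthl1 window also holds TTTCGCGC, a form of the binding motif of the E2F cell cycle factors. TTTGGCGC, TTTCCCGC, TTTCGCGC or TTTGCCGC, searched on both strands, occur in 2.26% of all promoters and, among the repair genes, in Lig1, Msh3, Msh6 and Nthl1. CCAAT, the NF-Y motif, occurs on either strand in 37.4% of all promoters and in 22 of the 38 promoters of repair genes. These 22 belong to 20 genes, all 4 printed here among them. The E2F forms occur in 4 of the 38. All 4 forms hold a CpG, and no comparison with promoters of like CpG content was made.

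For Neil1, Neil2 and Mutyh the 95% confidence intervals reached beyond 2-fold. Over the 11 glycosylases the median log2 fold change was -0.14, and Nthl1 was the only one of the 11 past the unadjusted threshold. Neil2, which removes oxidised bases from single-stranded and bubble DNA, was the rarest repair gene, at 0.340 and 0.200 FPKM in the cKO libraries, against 0.600, 0.438 and 0.505 FPKM in the controls. The groups do not overlap, but the cKO values correspond to about 5.3 and 3.8 fragments (log2 fold change -0.75, SE 0.39, adjusted p = 0.4975, limma). Smug1, which removes uracil and hydroxymethyluracil, was measured at 12.5 and 12.9 FPKM in the cKO libraries, against 15.4, 14.02 and 15.02 FPKM in the controls. Its cKO values were also below every control, by a small margin (log2 fold change -0.22, SE 0.16, adjusted p = 0.610, limma).

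Mpg, which removes alkylated purines, had the highest level of the glycosylases and hardly varied. It was measured at 14.7 FPKM in both cKO libraries, against 14.95, 14.4 and 15.2 FPKM in the controls (log2 fold change -0.02, 95% confidence interval -0.37 to 0.33, limma). Tdg, the glycosylase of active demethylation, was measured at 5.42 and 4.63 FPKM in the cKO libraries, against 6.49, 5.48 and 4.78 FPKM in the controls. Mbd4, which removes thymine and uracil mispaired at CpG sites, was measured at 4.19 and 4.27 FPKM in the cKO libraries, against 3.92, 4.70 and 4.71 FPKM in the controls. For both genes the groups overlap, and the confidence interval of the difference lay within 2-fold. Ogg1 and Mutyh, which act on 8-oxoguanine and on the adenine mispaired with it, had means of 5.25 and 1.004 FPKM over the 5 libraries. Neil3, a glycosylase of proliferating cells, was measured at 3.76 and 5.04 FPKM in the cKO libraries, against 3.91, 6.25 and 7.18 FPKM in the controls. Ung, the main uracil glycosylase, was measured at 3.48 and 5.17 FPKM in the cKO libraries, against 3.999, 3.70 and 2.46 FPKM in the controls. Neil1 was measured at 3.601 and 2.15 FPKM in the cKO libraries, against 2.12, 1.55 and 2.47 FPKM in the controls. In Neil3, Ung and Neil1 the groups overlap too.

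The 10 genes of strand processing, synthesis and ligation showed a median log2 difference of -0.16, and Apex1 alone passed the unadjusted threshold. Fen1, the flap endonuclease of long-patch BER and of lagging strand replication, was measured at 23.0 and 22.8 FPKM in the cKO libraries, against 26.4, 27.0 and 32.4 FPKM in the controls (log2 fold change -0.31, SE 0.16, adjusted p = 0.491, limma). Aptx, which removes AMP from abortive ligation ends, was measured at 5.91 and 6.82 FPKM in the cKO libraries, against 7.97, 8.60 and 8.80 FPKM in the controls (log2 fold change -0.41, SE 0.18, adjusted p = 0.438, limma). Neither gene overlaps between the groups and neither passed the threshold. Lig1, the replicative ligase, was one of only 2 repair genes with both cKO libraries above every control. It was measured at 7.80 and 6.85 FPKM in the cKO libraries, against 5.84, 6.57 and 6.47 FPKM in the controls (log2 fold change 0.22, SE 0.19, adjusted p = 0.676, limma).

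In the other genes of this step the groups overlapped. Polb, the gap-filling polymerase, was measured at 43.6 and 46.3 FPKM in the cKO libraries, against 43.6, 45.1 and 63.2 FPKM in the controls. Parp1, the sensor of strand breaks, was measured at 40.6 and 59.4 FPKM in the cKO libraries, against 63.3, 62.0 and 42.6 FPKM in the controls. Each of these genes has a library that stands apart from its own group, MG17 for Polb and both MG18 and MG17 for Parp1. Xrcc1, the scaffold of single-strand break repair, and its partner ligase Lig3 had means of 15.2 and 20.9 FPKM over the 5 libraries, Parp2 of 18.6 FPKM and the minor abasic endonuclease Apex2 of 8.11 FPKM. For all 10 genes the confidence interval lay within 2-fold.

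Of the 6 NER genes of damage recognition, all had a lower mean log2 value in cKO, and Rad23b alone had a p under 0.05. Of all genes, 52.2% had a lower mean log2 value and 5.17% were lower at that p. With quantile normalization or median ratio scaling 5 of the 6 were lower, and without MG15 or without MG18 only 3 were. The median log2 fold change was -0.07. Ddb1, which holds the Ddb2 photolesion sensor in its ubiquitin ligase, had the highest level of all repair genes. It was measured at 146.3 and 157.7 FPKM in the cKO libraries, against 179.5, 161 and 134.5 FPKM in the controls (log2 fold change -0.05, 95% confidence interval -0.45 to 0.35, limma). Its cKO values lie inside the control range, and the sign of the difference turned without MG15, at 0.046, without MG18, at 0.005, and with quantile normalization, at 0.07. Xpc, the sensor of global-genome repair, had a mean of 9.56 FPKM over the 5 libraries and Ddb2 one of 3.49 FPKM. Ercc6 and Ercc8, the Cockayne syndrome factors that start repair at stalled RNA polymerase, had means of 9.46 and 19.1 FPKM.

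The 6 NER genes of opening and incision had no common direction, with 3 lower and 3 higher in cKO (2 lower and 4 higher with quantile normalization or median ratio scaling) and a median log2 fold change of 0.08. Ercc1, the partner of the nuclease Ercc4, had the highest mean of these genes, at 25.1 FPKM. It was measured at 29.1 and 20.0 FPKM in the cKO libraries, against 27.98, 17.6 and 30.6 FPKM in the controls. The spread within each group was far larger than the difference (log2 fold change -0.03, 95% confidence interval -0.62 to 0.55, limma), whose sign turned with either scaling. Ercc4, the nuclease that cuts 5′ of the lesion, was measured at 4.01 and 3.59 FPKM in the cKO libraries, against 2.995, 3.20 and 2.67 FPKM in the controls. It was the other gene with both cKO libraries above every control (log2 fold change 0.35, SE 0.22, adjusted p = 0.5675, limma). Ercc5, the nuclease that cuts on the 3′ side, was measured at 13.1 and 13.8 FPKM in the cKO libraries, against 14.3, 14.95 and 15.97 FPKM in the controls (log2 fold change -0.17, SE 0.16, adjusted p = 0.708, limma). Ercc2 and Ercc3, the helicases of the transcription factor TFIIH, had means of 15.6 and 10.6 FPKM over the 5 libraries. For Ercc3 MG18 stood apart, with 14.4 FPKM, against 9.77 FPKM in MG19 and 9.11 to 10.1 FPKM in the controls.

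For mismatch repair 5 of 6 genes had a lower mean log2 value in cKO, where 52.2% of all genes did. The median log2 fold change was -0.21. At an unadjusted p under 0.05, 0 of 6 passed in either direction, against 5.17% of all genes downward and 6.37% upward. For Mlh3, Msh6 and Pms2, 3 of the 6, the cKO libraries lay below every control, against 16.3% of all genes. Mlh3, a subunit of the MutL-gamma endonuclease best known from meiosis, was measured at 6.82 and 7.13 FPKM in the cKO libraries, against 8.30, 9.24 and 8.14 FPKM in the controls (log2 fold change -0.29, SE 0.18, adjusted p = 0.559, limma). Msh6, the subunit of the sensor for single mispairs, was measured at 25.0 and 26.3 FPKM in the cKO libraries, against 30.2, 31.0 and 26.4 FPKM in the controls. The higher cKO library and the lowest control are all but equal (log2 fold change -0.18, SE 0.15, adjusted p = 0.667, limma). Pms2, the endonuclease subunit of MutL-alpha, was measured at 8.66 and 9.86 FPKM in the cKO libraries, against 10.7, 10.4 and 11.8 FPKM in the controls (log2 fold change -0.24, SE 0.17, adjusted p = 0.619, limma).

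In the other mismatch repair genes the groups overlapped. Msh3, the sensor of larger loops, was measured at 11.7 and 11.9 FPKM in the cKO libraries, against 11.7, 13.1 and 12.8 FPKM in the controls. Pms1, a further MutL subunit, was measured at 5.01 and 7.40 FPKM in the cKO libraries, against 7.05, 8.29 and 8.93 FPKM in the controls. Exo1, the exonuclease that removes the mispaired strand, had a mean of 2.09 FPKM over the 5 libraries. For all 6 genes the confidence interval lay within 2-fold. The 3 pathways had median log2 fold changes of -0.15 for BER, -0.05 for NER and -0.21 for mismatch repair, and differences between them were not tested. The NER median was 0.045 without MG15.

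Partners of these pathways were counted at the same unadjusted threshold, which 5.17% of all genes passed downward and 6.37% upward. Of 18 other NER factors 1 passed downward (5.56%) and 0 upward, and the median log2 fold change was -0.21. This was Gtf2h3, a structural subunit of TFIIH, with 11.1 and 11.5 FPKM in the cKO libraries, against 15.4, 17.4 and 17.8 FPKM in the controls (log2 fold change -0.57, SE 0.16, adjusted p = 0.211, limma). Of 14 genes of repair synthesis, which comprise PCNA, its loader and the replicative polymerases delta and epsilon, 1 passed downward (7.14%) and 0 upward, with a median of -0.15. This was Pole3, a histone-fold subunit of polymerase epsilon, with 25.7 and 24.4 FPKM in the cKO libraries, against 43.5, 35.9 and 37.6 FPKM in the controls (log2 fold change -0.63, SE 0.16, adjusted p = 0.130, limma). For both genes the cKO libraries are close together and far below the lowest control. Of 5 other BER factors tested 0 passed in either direction, with a median of -0.22.

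Of 6 genes that link methylcytosine oxidation to BER, Gadd45g was lower in cKO and 5 had a higher mean log2 value. They are the 3 Tet enzymes and the 3 Gadd45 genes, stress-induced genes that have been linked to demethylation. Of the 6, 1 passed the unadjusted threshold downward (16.7%, against 5.17% of all genes) and 0 upward (against 6.37%). The median log2 fold change was 0.32. Gadd45g was measured at 13.4 and 12.6 FPKM in the cKO libraries, against 24.3, 27.7 and 27.0 FPKM in the controls. The groups lie far apart, at a log2 difference of -1.02 (SE 0.16, adjusted p = 0.0128, limma). Over the alternatives its adjusted p ranged from 0.0119 to 0.200, and it was above 0.05 without a trend (0.0582) and when MG16 (0.0699), MG18 (0.160) or MG19 (0.200) was left out. Both cKO libraries lay above every control for 2 of the 6 (33.3%, against 14.5% of all genes). These were Tet3 and Gadd45b, with adjusted p = 0.477 and 0.460 (limma). Gadd45a, whose groups overlap, had a log2 fold change of 0.685.

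**Figure D4:**
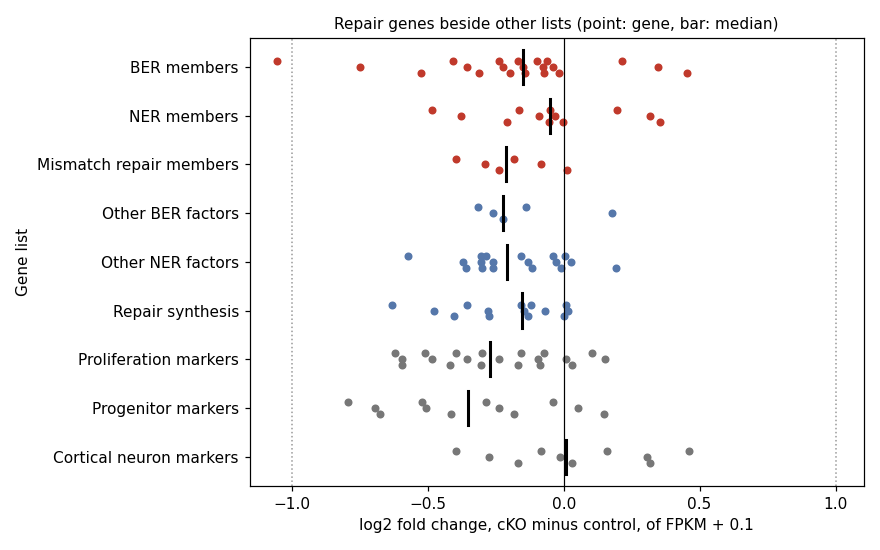
Difference in mean log2(FPKM + 0.1), cKO over control, of each gene (point) and the median of its list (bar), for the repair genes by pathway (red), their partners (blue) and cell markers (grey). The medians of the proliferation and progenitor markers, -0.27 and -0.35, lie below those of the 3 repair pathways, and the median of the cortical neuron markers, 0.01, lies near 0.

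Some markers of dividing and progenitor cells were lower in cKO. In whole tissue, fewer cells of a type and less RNA per cell cannot be told apart. Of 20 proliferation markers 3 passed the unadjusted threshold downward, namely Top2a, Ccna2 and Ccnb2, against 5.17% of all genes, and 0 upward. These 3 had adjusted p from 0.236 to 0.358 (limma). The mean log2 value was lower in cKO for 16 of the 20 and higher for 4. Those 4 were Mki67 (0.009), Mcm2 (0.15), Mcm4 (0.03) and Foxm1 (0.104). The summed level of the 20 was 323.7 and 359.4 FPKM in the cKO libraries, against 354.2 to 509.7 FPKM in the controls. These ranges overlap. Of 12 progenitor markers 4 passed downward, namely Pax6, Nes, Eomes and Neurog2, and 0 upward. Their sums were 1517 and 1264 FPKM in the cKO libraries, against 1630 to 2281 FPKM in the controls. These sums rest mostly on Fabp7, with group means of 814 FPKM in cKO and 1185 FPKM in controls. The mean log2 value was lower in cKO for 10 of the 12 and higher for 2, Sox2 and Slc1a3. The 4 past the threshold had adjusted p from 0.117 to 0.290 (limma), and 0 of them were over 2-fold. The study, which required over 2-fold, named Pax6, Tbr2 (Eomes) and Ngn2 (Neurog2) as absent from its deregulated genes at E16. By staining, it found the numbers of Pax6-positive and of mitotic cells unaltered in embryonic cortices. Of 10 cortical neuron markers 0 passed in either direction. The mean log2 value was lower in cKO for 5 of them and higher for 5, with a median log2 fold change of 0.009. Their sums were 3138 and 2979 FPKM in the cKO libraries, against 3163 to 3571 FPKM in the controls. Most of each sum came from Tubb3, with group means of 1650 FPKM in cKO and 1756 FPKM in controls, and Neurod6, with 600.7 and 803.4 FPKM. The unadjusted threshold was passed upward by 5 of 8 ventral and interneuron markers, 4 of 7 glial, 3 of 7 microglial, 2 of 5 meningeal fibroblast and 1 of 6 endothelial markers, against 6.37% of all genes, and downward by 0 of each. The microglial markers were split, with 4 higher in mean log2 value and 3 lower, namely Tmem119 (-0.62), Aif1 (-0.55) and P2ry12 (-0.18). Of the meningeal calls, Col1a1 was high in MG19 only, at 3.19 FPKM, against 0.663 FPKM in MG18 and 0.203 to 0.816 FPKM in the controls. Of 7 erythroid markers 2 passed downward and 1 upward, among them the near-identical genes Hba-a1 and Hba-a2, which were close to 0 in some libraries and whose values are uncertain. The part of cell makeup in the repair gene levels was not tested.

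The difference was also set beside transcript length. Across the 39 repair genes length and log2 fold change had a Spearman's rho of 0.128, and across the 13969 genes with a length one of 0.23, as descriptions over genes, which are not independent. Of the 39 repair genes 5 had a median annotated transcript under 1300 bases, a bound set after the values were seen, namely Nthl1, Apex1, Polb, Xpa and Ercc1. All 5 had a lower mean log2 value in cKO and 3 of them, Nthl1, Apex1 and Xpa, had a p under 0.05. Their median log2 fold change was -0.49, against -0.10 for the longer repair genes. Over all genes with a length the same bound gave -0.16 for the shorter and 0.003 for the longer genes. After each library was corrected for its trend with length, the 4 lower genes were at -1.03 for Nthl1, -0.53 for Apex1, -0.46 for Rad23b and -0.46 for Xpa, and all 4 passed the unadjusted threshold. Aptx and Mlh3 then passed as well, at -0.52 and -0.41, so that 6 of 39 were lower, against 8.04% of all genes.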

How the data were processed

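RNA-seq of whole E16 cortices was deposited as 1 table of FPKM values, which the authors made with TopHat2 on mm10 from 100-bp paired-end, stranded reads, keeping uniquely mapped, properly paired and unduplicated reads, and running Cuffdiff and cummeRbund. Versions of these were not given in the sources used here. Since the deposited table lacks counts, no count test was run. From the deposited FPKM, log2(FPKM + 0.1) was fitted with limma 3.58.1 in R 4.3.3 (lmFit, eBayes with a trend, prior degrees of freedom 6.25) without covariates, cKO over control, for 14695 genes that averaged 0.1 FPKM or more. Small RNA names (1237) were left out, and p-values were adjusted over all genes tested by Benjamini and Hochberg. All 39 repair genes passed the filter. The library kit marks strand, and whether the counting used it was not given.

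The thresholds of an unadjusted p under 0.05 and over 2-fold are those of the study. The repair genes and all gene lists were chosen with earlier results of these data known. Per-library values are given for genes with an unadjusted p under 0.05, for genes whose groups do not overlap and for the gene with the highest mean of each role group, and values of some others were added afterwards. Of the partner lists, genes with an unadjusted p under 0.05 are named. Libraries were matched by name, the study calls them biological replicates, and p-values cover only the spread between them. Depth was estimated from 3094 genes as the step size that made low values whole within 0.25 of a fragment, which 65.0% to 83.0% of the values met, so fragment numbers are approximate and no counting interval is given. Gene positions and lengths are from GENCODE on GRCm38, the build of mm10, and promoters from RefSeq. Other pseudocounts, filters, scalings, a fit without a trend, leaving out each library and, after the data were seen, a loess correction for transcript length (span 0.3) were tried as alternatives. Other libraries and assays of the study are not analysed here.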

Additional observations from a re-analysis of the deposited data

How the results depend on the processing

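No repair gene reached an adjusted p under 0.05 under any of the 13 alternatives. The count of repair genes past both the unadjusted threshold and 2-fold, all lower in cKO, was 1, and became 0 with a pseudocount of 1, 2 with quantile normalization (Nthl1 and Neil2) and 0 to 2 when a library was left out. The share of all genes past both was not counted under the alternatives. The count of repair genes lower at an unadjusted p under 0.05 was 4, where 5.17% of all genes were lower. It became 2 with median ratio scaling (3.85% of all genes) and 3 or 4 without a control library (3.7% to 5.96%). It was 1 without MG19, where only Pms1 was lower, at -0.67, and Ercc3 was higher, at 0.60, so that the count of higher genes ranged from 0 to 1. Without MG18 it was 2, Nthl1 and Neil2. Genes with groups that do not overlap numbered 15 to 17 lower and 2 to 6 higher without a library, where the shares of all genes were larger too, at 20.9% to 30.5% lower and 19.3% to 28.9% higher. The median log2 fold change ranged without a library from -0.15 to -0.11 for all 39 genes, -0.15 to -0.09 for BER, -0.148 to 0.045 for NER and -0.27 to -0.13 for mismatch repair, and was -0.20 for BER with the length correction. Of single genes, Rad23b missed the threshold with quantile normalization, median ratio scaling and without a trend (log2 fold changes -0.25, -0.34 and -0.38), and so did Xpa (-0.44, -0.45 and -0.49), while Neil2, Aptx and Mlh3 passed it under some, and Neil3 passed it without MG15 (-0.61). Differences near 0 changed sign. Mpg was at 0.005 with quantile normalization and 0.023 with median ratio scaling, Ddb1 at 0.07 with quantile normalization and from -0.162 to 0.046 without a library, and Ercc1 at 0.031 and 0.007 with the same scalings and from -0.30 to 0.235 without a library. The causes of these shifts were not tested. No paired analysis was possible because the labels give the libraries no replicate numbers that groups share. With 2 cKO libraries, the 95% confidence intervals of Mutyh, Nthl1, Neil1 and Neil2 reached beyond 2-fold.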

Other observations

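For 9 of the 39 repair genes, a protein-coding gene among those tested starts on the other strand within 1000 bases and reads away from it. In this arrangement both genes read outward from a shared promoter. The share of all genes with such a neighbour was not counted. These neighbours were looked up after the values were seen. Nthl1 shares its start region with Tsc2, a brake of the mTOR pathway, whose start lies 50 bases away. Tsc2 was measured at 11.2 and 14.1 FPKM in the cKO libraries, against 10.8, 12.9 and 8.74 FPKM in the controls (log2 fold change 0.23, adjusted p = 0.694, limma), while Nthl1 was lower. Apex1 lies 75 bases from the start of Osgep, a tRNA-modifying enzyme, which was measured at 6.13 and 8.78 FPKM in the cKO libraries, against 13.9, 7.86 and 5.69 FPKM in the controls (log2 fold change -0.21, adjusted p = 0.831, limma).

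The pair of Parp2 and Ccnb1ip1 on chromosome 14 differed most. Their starts are 109 bases apart. Ccnb1ip1, a gene known for its role in meiotic crossing over, was measured at 7.13 and 3.85 FPKM in the cKO libraries, against 0.0177, 0.720 and 0.376 FPKM in the controls (log2 fold change 3.90, SE 0.70, adjusted p = 0.0313, limma). Over the alternatives its adjusted p ranged from 0.00274 with a pseudocount of 1 to 0.501 without MG18, and it was 0.358 without MG19, 0.0940 without MG17, 0.170 with a pseudocount of 0.01, 0.0931 with no filter, 0.0727 with quantile normalization and 0.128 without a trend. The log2 fold change was 2.23 with a pseudocount of 1 and 4.73 with one of 0.01. Parp2 was measured at 17.6 and 16.4 FPKM in the cKO libraries, against 19.2, 17.4 and 22.2 FPKM in the controls (log2 fold change -0.20, adjusted p = 0.6685, limma). The difference between the 2 genes of the pair was not tested. The neighbours of Xpc and Pms2, Lsm3 and Aimp2, had both cKO libraries below every control, with adjusted p = 0.4975 and 0.543 (limma), and those of Ercc8, Mbd4, Mutyh and Pms1 overlapped between the groups.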
